A study of Saccharomyces cerevisiae with 15 samples.

Results

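The 10 genes described here, *SPG4*, *MOH1*, *FMP16*, *LEE1*, *YNL194C*, *YMR196W*, *RTN2*, *RTC3*, *PHM7* and *BDH2*, were chosen by the measured rise of their transcripts at 24 min against −10 min of a nitrogen downshift. They are 10 of the 5449 *S. cerevisiae* genes measured by a probe set of their own, and each has 1 such probe set among 5498. Prototrophic wild-type *S. cerevisiae* YSBN6 was grown in bioreactor batch cultures on glucose minimal medium with glutamine and proline, and the shift to proline came when the cells had depleted glutamine. No gene was deleted and no drug was added in any of these samples. RNA from 3 independent cultures was hybridized at −10, 7 and 24 min, and replicate 1 alone was sampled at −5, 3, 10, 14, 56 and 120 min, which gives 15 Affymetrix Yeast Genome 2.0 arrays. Each array reports a normalized intensity per probe set, a measure of transcript abundance in the population that cannot tell more transcript per cell from more cells with the transcript.

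Yeast cells that run out of a good nutrient slow their growth and switch on genes for survival, storage of carbohydrates and respiration, a programme that is fullest in stationary phase. When good nutrients are plentiful, the kinases TORC1 and PKA keep much of this programme off, in part by holding the zinc-finger activators Msn2 and Msn4 and the Rim15 pathway inactive. Several of the 10 genes are known from screens for stationary-phase or stress phenotypes, whereas others have no assigned function.

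The arrays at −10 and 24 min chose the genes, so their difference is given without a test. Ranked by the log2 change at 24 against −10 min, the 10 genes lay between rank 2 and rank 70 of 5498, with 4 among the first 10, 7 among the first 20 and 8 among the first 50. *PHM7* was at rank 22, *BDH2* at rank 54 and *RTC3* at rank 70, so these 3 were outside the first 20. No fixed limit separated them from the rest, and 60 probe sets of other genes ranked above *RTC3*. Among those were *HXT5*, a hexose transporter (log2 change 3.62), *MLS1*, malate synthase of the glyoxylate cycle (3.48), *UGA4*, the GABA permease (3.43), *PDC6*, a minor pyruvate decarboxylase (3.18), and *CYC7*, the second cytochrome c isoform (3.06). Both probe sets of the uncharacterized *YGR174W-A* (3.75 and 3.74) and *YCL042W* (3.17) also ranked high, and *GAC1*, at rank 1, and *YMR206W*, at rank 10, were not above background at −10 min. All 10 genes lay above the background intensity of 68.1 on every array, a level taken from the probe sets for another organism that the array also carries.

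Values between times were tested with limma on arrays other than those at −10 and 24 min, although all 15 arrays shared 1 estimate of the spread. Times with 1 array were assumed to vary like those with 3 cultures. Comparisons with 7 min set replicate 1 alone at the other time against the mean of 3 cultures, so they include differences between cultures. At 7 min replicate 1 was the highest culture in 9 of the 10 members. Leaving out a replicate, where mentioned, removed only its arrays at −10, 7 and 24 min. The tested comparisons show when the transcripts moved. Because most of the times lie between the ones used for the choice, and replicate 1 took part in it, a rise somewhere on the way was already given by the choice.

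*SPG4* and *MOH1* are the members with a stationary-phase phenotype, *SPG4* being needed for survival in that state at high temperature and *MOH1*, of the yippee-like family, for survival in that state as such. In replicate 1, the *SPG4* intensity was 189.9, 201 and 258 at −10, −5 and 3 min, 307, 676 and 1567 at 7, 10 and 14 min, and 3346, 2789 and 5029 at 24, 56 and 120 min. Replicates 2 and 3 had 226 and 196 at −10 min, 258 and 322 at 7 min, and 3179 and 3136 at 24 min. The transcript thus made most of its climb between 7 and 24 min. *SPG4* averaged 3221 ± 111 at 24 min and 204 ± 19.1 at −10 min (SD, n = 3 cultures), a log2 change of 3.99. Between 7 and 14 min it rose 5.33-fold (log2 change 2.41 ± 0.13 SE, adjusted p = 1.2e-07 by limma). From 56 to 120 min it rose again (0.85 ± 0.16, adjusted p = 0.0065), the only pass among the 10 in that late comparison.

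*MOH1* had reached the smallest share of its log2 rise to 24 min at 14 min, 60.2% in replicate 1. Its intensities in replicate 1 were 131, 146 and 124 at −10, −5 and 3 min, 199, 281 and 521 at 7, 10 and 14 min, and 1298, 2017 and 2811 at 24, 56 and 120 min. The other cultures gave 117 and 125 at −10 min, 163 and 189 at 7 min, and 1145 and 1209 at 24 min. At 7 min that share was 18.3%, and its steepest interval was 10 to 14 min. At 7 against −5 min its log2 change was 0.32 ± 0.13 and missed the threshold (adjusted p = 0.0896), but it passed when the culture was fitted as a block (0.42, adjusted p = 0.0267). From 14 to 56 min it rose 3.87-fold (1.95 ± 0.16, adjusted p = 9.9e-07), the largest change of the 10 in that comparison. At 120 min it stood 2.31-fold above the mean at 24 min.

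Another 3 of the 10, *YNL194C*, *RTN2* and *PHM7*, encode membrane proteins. *YNL194C* encodes an integral plasma membrane protein of the Sur7 family, whose members sit at the furrow-like eisosome domains. Its intensity in replicate 1 was 246, 242 and 400.3 at −10, −5 and 3 min, 653, 1457 and 2949 at 7, 10 and 14 min, and 3517, 5279 and 5622 at 24, 56 and 120 min. The other cultures had 211 and 209 at −10 min, 402 and 474 at 7 min, and 3645 and 3229 at 24 min. Its fitted rise from 7 to 14 min was the largest of the 10, 5.91-fold (2.56 ± 0.20, adjusted p = 8.5e-07). That fit sets replicate 1 at 14 min against the mean of 3 cultures at 7 min. Within replicate 1, *SPG4* rose by a larger factor (307 to 1567) than *YNL194C* (653 to 2949). *YNL194C* had the largest rise over the whole course outside the choosing arrays, 22.5-fold at 56 and 120 min against −5 min (4.49 ± 0.21, adjusted p = 2.2e-09).

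*RTN2* encodes a reticulon, a protein that bends the membrane of the endoplasmic reticulum into tubules. In replicate 1 its intensity was 493, 477 and 649 at −10, −5 and 3 min, 862, 1510.1 and 3003 at 7, 10 and 14 min, and 4205, 5750.0 and 8182 at 24, 56 and 120 min. In replicates 2 and 3 it was 515 and 471 at −10 min, 687 and 742 at 7 min, and 4870.2 and 3952 at 24 min. It had nearly the same intensity at −10 and −5 min and its highest at 120 min. The rise from 14 to 56 min passed (0.94 ± 0.16, adjusted p = 0.00042), whereas that from 56 to 120 min did not (0.51 ± 0.16, adjusted p = 0.0593).

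*PHM7* belongs to the family of the calcium-permeable channel Csc1 and took its name from genes controlled by phosphate supply. Replicate 1 had 669.5, 881 and 1279 at −10, −5 and 3 min, 1978, 3431 and 5415 at 7, 10 and 14 min, and 5772, 6155 and 6728 at 24, 56 and 120 min. In replicates 2 and 3 the intensities were 842 and 636 at −10 min, 1505 and 1597 at 7 min, and 5787 and 5262 at 24 min. The transcript had reached 97.0% of its 24 min log2 rise at 14 min in replicate 1, and its further change from 14 to 56 min was 0.18 ± 0.19 (adjusted p = 0.451).

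*FMP16* and *BDH2* are linked to mitochondria and metabolism and had different courses. *FMP16*, found in the mitochondrial proteome and of unknown function, had 686, 770.1 and 1073 at −10, −5 and 3 min, 1545, 2673 and 4827 at 7, 10 and 14 min, and 9009, 11706 and 14565 at 24, 56 and 120 min in replicate 1. Replicates 2 and 3 had 745 and 723 at −10 min, 1153 and 1399 at 7 min, and 8173 and 8122 at 24 min. It increased at every sampled time, and the rises from 7 to 14 min (1.83 ± 0.12, adjusted p = 3.3e-07) and from 14 to 56 min (1.28 ± 0.15, adjusted p = 3e-05) both passed.

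*BDH2* encodes a putative medium-chain alcohol dehydrogenase next to its paralog *BDH1*, the butanediol dehydrogenase. Its intensities in replicate 1 were 3054, 4269.5 and 6003 at −10, −5 and 3 min, 9446, 13092 and 15686 at 7, 10 and 14 min, and 14903, 12196 and 13236 at 24, 56 and 120 min. Replicates 2 and 3 had 3287 and 2847 at −10 min, 6294 and 8297 at 7 min, and 15334 and 14926 at 24 min. *BDH2* was the earliest member by the share of the log2 rise to 24 min reached at 7 min, 71.2% in replicate 1. In replicate 2 this share was close to that of *RTC3* (42.2% and 41.0%). The −5 min array of *BDH2* was above all 3 arrays at −10 min, as in 7 of the 10 members and 30.9% of all probe sets. Its highest value came at 14 min. At 56 against 14 min the change of *BDH2* did not pass the threshold (−0.36 ± 0.19, adjusted p = 0.137), but without replicate 2 it did (adjusted p = 0.00134). Replicate 2 enters that comparison only through the spread.

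*RTC3* resembled *BDH2* in timing. It encodes a small protein with an SBDS-like domain that has been tied to RNA metabolism. Replicate 1 gave 1664, 1966 and 2853 at −10, −5 and 3 min, 4514, 6822 and 8863 at 7, 10 and 14 min, and 7374, 6459.9 and 8548 at 24, 56 and 120 min. The other cultures gave 1708 and 1712 at −10 min, 3328 and 3797 at 7 min, and 8679 and 6969 at 24 min. It was the only member with a lower call at 56 against 14 min (−0.46 ± 0.17, adjusted p = 0.0430), a call that was lost with the culture as a block (adjusted p = 0.0631), without replicate 3 (adjusted p = 0.0928), without the trend of the spread over intensity (adjusted p = 0.0787) and with unannotated and other-organism probe sets included (adjusted p = 0.0668).

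*LEE1*, which encodes a zinc-finger protein of unknown function, had 696, 1003 and 1611 at −10, −5 and 3 min, 3075, 5371 and 8084 at 7, 10 and 14 min, and 10637, 10399.9 and 10768 at 24, 56 and 120 min in replicate 1. In the other cultures it had 735 and 636 at −10 min, 1741 and 2516 at 7 min, and 10476 and 10977 at 24 min. The 24, 56 and 120 min values lay close together, between 10399.9 and 10977. It had the largest early rise of the 10, with a log2 change of 1.25 ± 0.21 at 7 against −5 min (adjusted p = 0.00255).

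*YMR196W*, an uncharacterized gene, had 1332, 1772 and 2105 at −10, −5 and 3 min, 2893, 4668 and 8251 at 7, 10 and 14 min, and 12691, 13473 and 13610.4 at 24, 56 and 120 min in replicate 1. Replicates 2 and 3 had 1439 and 1205 at −10 min, 2050.3 and 2555 at 7 min, and 11905 and 12258 at 24 min. It did not pass after 56 min, with a log2 change of 0.01 ± 0.17 at 120 against 56 min (adjusted p = 0.972). Its early rise, 0.48 ± 0.14 at 7 against −5 min, was near the threshold (adjusted p = 0.0309). The call was lost without replicate 3 (adjusted p = 0.127) and without the trend of the spread over intensity (adjusted p = 0.0659). It was also lost without replicate 1 (adjusted p = 0.0766). That fit still set replicates 2 and 3 at 7 min against the −5 min array of replicate 1.

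**Figure D1:**
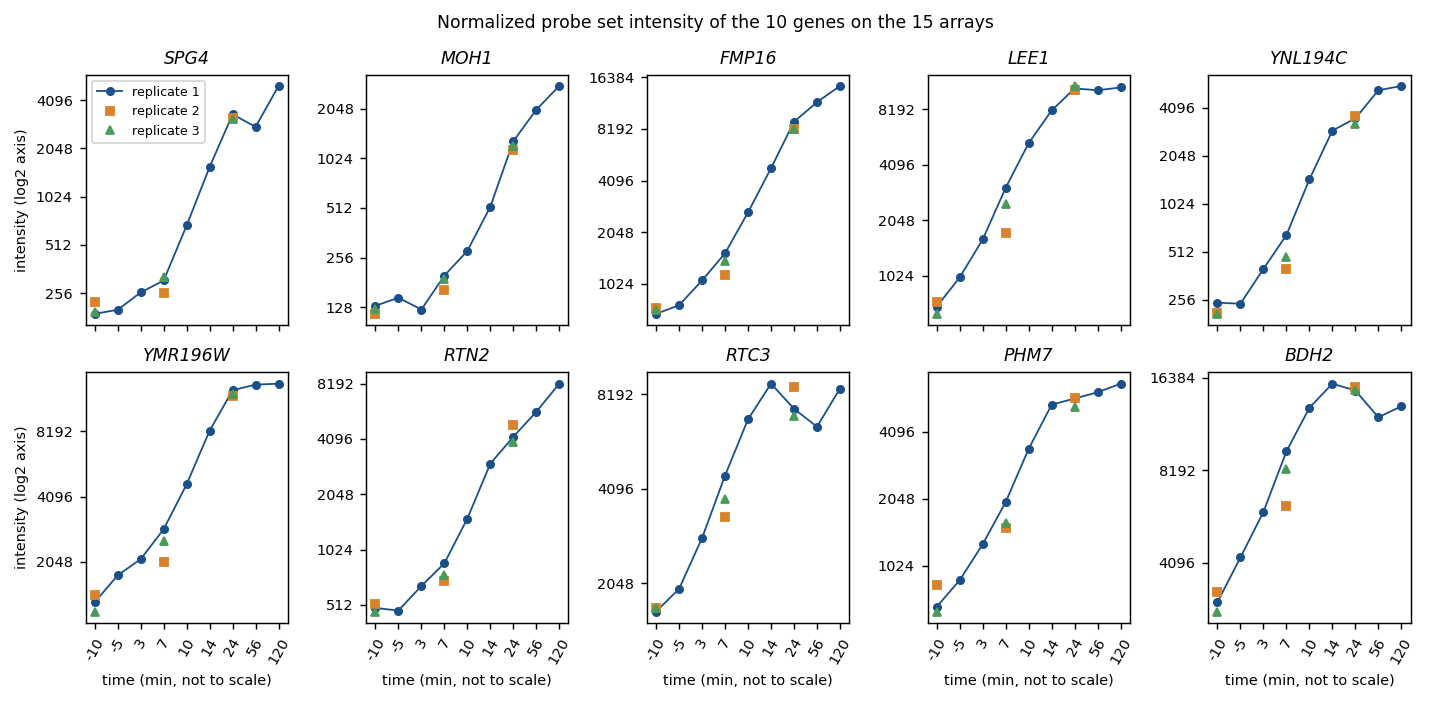
Normalized intensity of each of the 10 transcripts on a log2 axis against sampling time in min, with a line through the 9 arrays of replicate 1 and points for replicates 2 and 3 at −10, 7 and 24 min. In all 10 panels the 24 min arrays lie above the 7 min arrays and these above the −10 min arrays, and 7 of the 10 transcripts are highest at 120 min.

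In all 10 transcripts the 3 arrays at 24 min lay above the 3 at 7 min, and those above the 3 at −10 min, without overlap, as did 20.6% of all probe sets. The separation of 24 from −10 min follows from the choice of the genes. At −5 min, 7 of the 10 were above each array at −10 min, and *SPG4*, *YNL194C* and *RTN2* were not, with 30.9% of all probe sets above. The first comparison after glutamine depletion, 3 against −5 min, gave no call by limma among the members or any other probe set (0.0% higher and 0.0% lower of 5498), although 8 of the 10 members and 483 of all probe sets had an unadjusted p below 0.05. The members' log2 changes ran from −0.24 in *MOH1* to 0.72 in *YNL194C*, with a median of 0.49 against 0.02 over all probe sets. Without replicate 2, which enters this comparison only through the spread, 6 members passed.

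At 7 against −5 min, 9 of the 10 members were higher and none lower, all but *MOH1*, against a background of 10.3% higher and 12.2% lower over all probe sets. The members' median log2 change was 0.85, with −0.01 over all probe sets. Without replicate 3 the call of *SPG4* was lost as well (0.48, adjusted p = 0.0810). At 10 against 7 min all 10 members were higher (background 10.7% higher, 12.0% lower), by 0.62 in *MOH1* to 1.54 in *YNL194C*. With the culture as a block, 301 probe sets in place of 590 were higher there, and all 10 members still passed. At 14 against 7 min all 10 were again higher (background 33.6% higher, 21.6% lower), with a median log2 change of 1.75 against 0.06 over all probe sets. The smallest of these changes was that of *BDH2* (0.99 ± 0.16, adjusted p = 0.00022), a transcript that in replicate 1 had made most of its rise before 7 min.

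After 14 min the members parted. At 56 against 14 min, *MOH1*, *FMP16*, *RTN2*, *YNL194C*, *SPG4* and *YMR196W* were higher, by log2 changes of 0.71 to 1.95, and *RTC3* was lower, while *LEE1* (0.36 ± 0.26, adjusted p = 0.267), *PHM7* and *BDH2* did not pass. The background was 31.9% higher and 15.4% lower. At 120 against 56 min only *SPG4* passed, with 4.64% of all probe sets higher and 5.77% lower, and *MOH1* (0.48 ± 0.16, adjusted p = 0.0722) and *RTN2* were next. Without replicate 2, which enters this comparison too only through the spread, *SPG4*, *MOH1*, *FMP16*, *RTN2* and *RTC3* passed, which made 5. Over the whole course, at 56 and 120 min against −5 min, all 10 were higher, by 1.57 in *BDH2* to 4.49 in *YNL194C*. The median was 3.62, against 0.13 over all probe sets (background 46.0% higher, 30.2% lower). None of these arrays chose the genes, but all are from a culture that took part in the choice. A higher late level in that culture was largely given by the choice, so the comparison is no independent check of it.

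**Figure D2:**
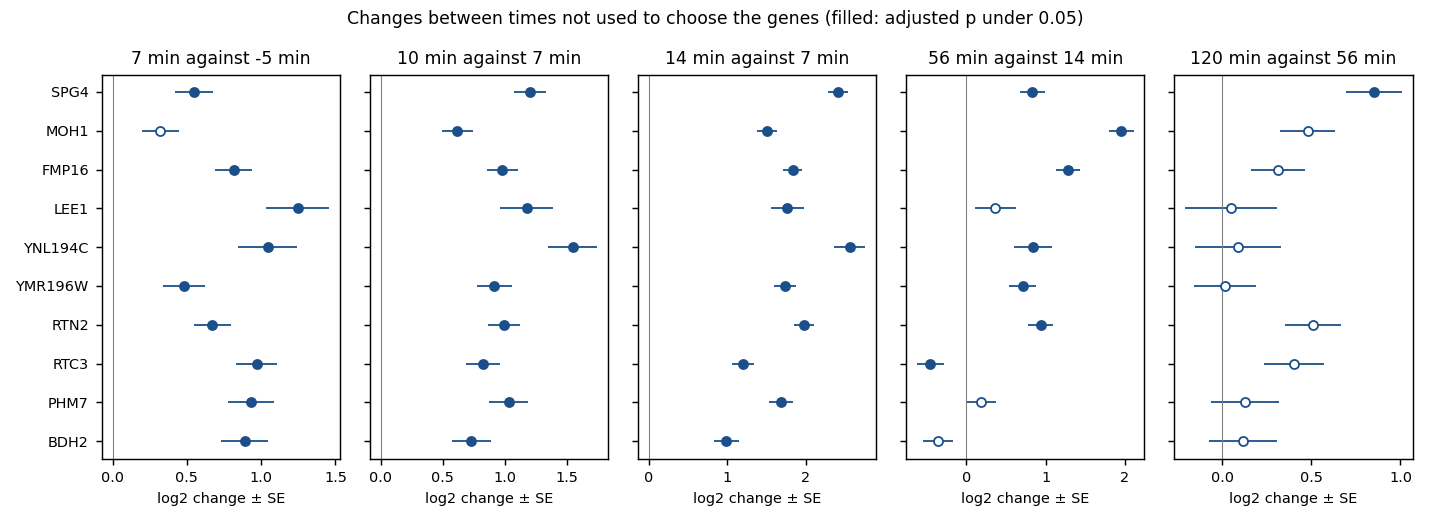
Log2 change with its standard error for each of the 10 transcripts (rows) in 5 comparisons between times, each panel with its own horizontal scale. Filled points passed an adjusted p of 0.05 and open points did not, so that all 10 are filled at 10 against 7 min and at 14 against 7 min but only *SPG4* at 120 against 56 min.

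The timing of each transcript was described in replicate 1 as the share of its own log2 change between −10 and 24 min that was reached at each sampled time, a measure that removes differences in size. At 7 min the share was 71.2% in *BDH2*, 67.0% in *RTC3*, 54.5% in *LEE1* and 50.3% in *PHM7*, and between 26.1% in *RTN2* and 36.7% in *YNL194C* in the middle group. It was 18.3% in *MOH1* and 16.7% in *SPG4*. At 14 min *RTC3* (112%) and *BDH2* (103%) were past their level at 24 min, whereas *MOH1* had reached 60.2%. At 120 min the order was different, and *MOH1* stood at 134%, *RTN2* at 131%, *FMP16* at 119%, *YNL194C* at 118% and *SPG4* at 114%, and *BDH2* at 92.5%. A share above 100% stands for a level above that at 24 min in the same culture. The shares depend on the log scale, and on the linear scale the share of *FMP16* at 14 min was 49.8% in place of 75.8%.

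Expressed as log2 units per min, 8 of the 10 transcripts climbed fastest between 7 and 10 min, *BDH2* between 3 and 7 min and *MOH1* between 10 and 14 min. The steepest slopes were 0.386 per min in *YNL194C* and 0.381 in *SPG4*, and the steepest of *MOH1* was 0.222. *BDH2* differed little between 3 to 7 min (0.164) and 7 to 10 min (0.157), so its place in this order rests on a small difference between single arrays.

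**Figure D3:**
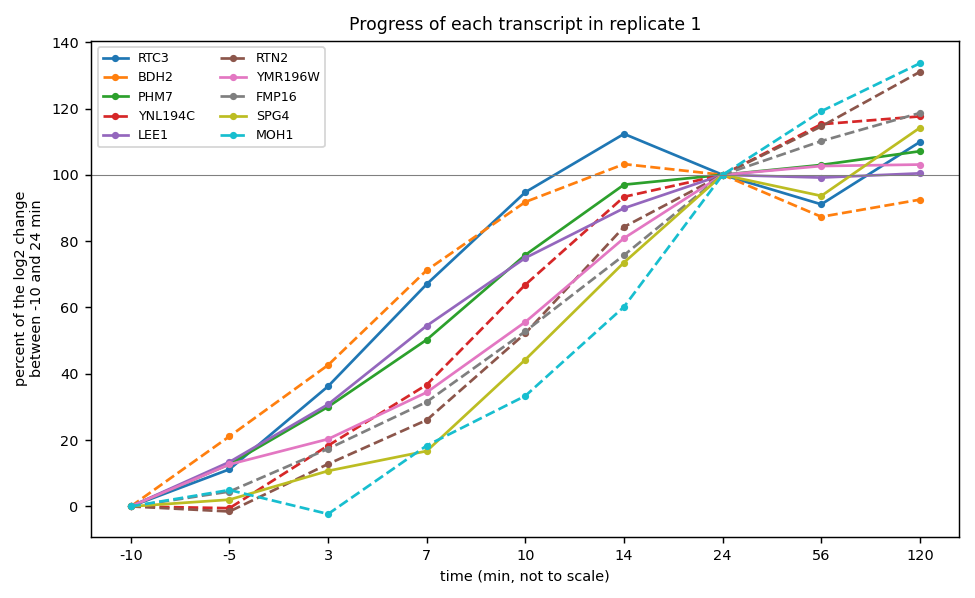
Percent of the log2 change between −10 and 24 min reached at each sampled time in replicate 1, 1 line per gene, with sampling times spaced evenly. *BDH2* and *RTC3* run ahead and exceed 100% at 14 min, *MOH1* and *SPG4* run behind at 7 min, and *MOH1* and *RTN2* end highest at 120 min.

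The 3 cultures were closest for these genes at 24 min and farthest apart at 7 min. The SD of log2 intensity between cultures had a median over the 10 genes of 0.10 at −10 min, 0.22 at 7 min and 0.08 at 24 min, with 0.04, 0.06 and 0.05 over all probe sets. The SD was above the 95th percentile of all probe sets in 1 of the 10 genes at −10 min, in 7 at 7 min, where that percentile was 0.20, and in 0 at 24 min. Replicate 2 was the lowest culture at 7 min in all 10 genes, and replicate 1 the highest in 9, all but *SPG4*, where replicate 3 was slightly higher. Of all 5498 probe sets, 1247 (22.7%) had the order replicate 1, replicate 3, replicate 2 at that time.

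Measured from each culture's own −10 min array, *LEE1* had risen by log2 changes of 2.14, 1.24 and 1.98 in replicates 1, 2 and 3 at 7 min, the widest spread in size among the 10. *SPG4* had moved by 0.69, 0.19 and 0.71, and *BDH2* by 1.63, 0.94 and 1.54. The median share of the 24 min rise over the 10 genes was 35.6% in replicate 1, 20.4% in replicate 2 and 31.1% in replicate 3. At 24 min the log2 changes of *LEE1* from the same start were 3.93, 3.83 and 4.11, and those of *BDH2* 2.29, 2.22 and 2.39. In neither was the low value of replicate 2 at 7 min followed by one of like size at 24 min. Replicate 2 was nevertheless still the lowest at 24 min in both. It was also lowest in *SPG4* (3.82, with 4.14 in replicate 1), *PHM7* (2.78, with 3.11 in replicate 1), *FMP16* and *YMR196W*. In *YNL194C*, *RTN2* and *RTC3* replicate 2 was the highest, and in *MOH1* it lay between the others.

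**Figure D4:**
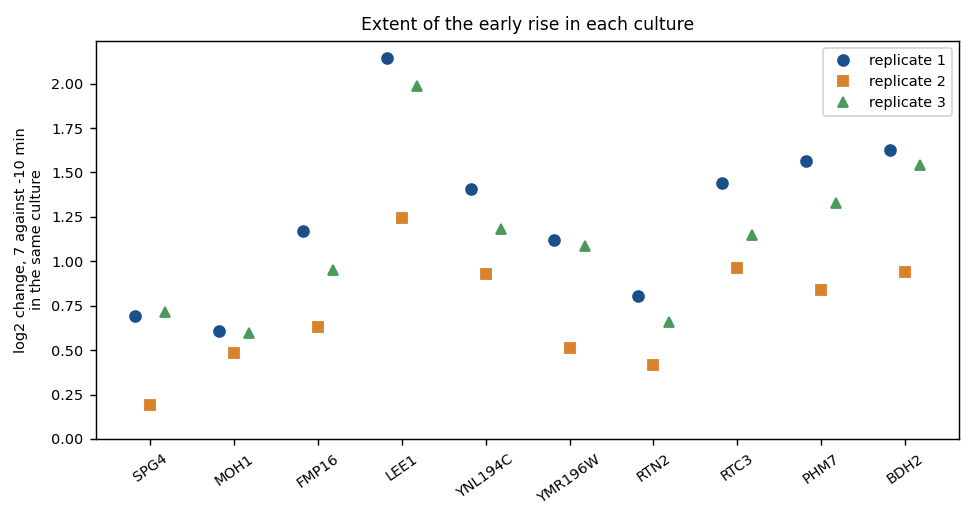
Log2 change of each of the 10 transcripts at 7 min against the −10 min array of the same culture, with 1 point for each of the 3 replicates. Replicate 2 is the lowest point for every gene, and the gap is widest in *LEE1*, with 1.24 in replicate 2 against 2.14 in replicate 1.

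Close relatives of the members showed how far the rise extended in each family. *FMP45*, the paralog of *YNL194C*, was the one relative whose change at 56 and 120 min against −5 min was of a member's size (3.22 ± 0.19, adjusted p = 1.5e-08). Its intensity in replicate 1 was 225, 261 and 304 at −10, −5 and 3 min, 321, 469.9 and 740.0 at 7, 10 and 14 min, and 1176, 1651 and 3597 at 24, 56 and 120 min, and replicates 2 and 3 had 264 and 217 at −10 min, 239 and 289 at 7 min, and 1024 and 885 at 24 min. It trailed *YNL194C*: at 7 against −5 min its log2 change was 0.11 ± 0.18 (adjusted p = 0.706), with 1.04 ± 0.20 (adjusted p = 0.00377) in *YNL194C*. At 120 against 56 min *FMP45* rose by a log2 change of 1.12 ± 0.22 (adjusted p = 0.0089), whereas *YNL194C* changed by 0.09 ± 0.24 (adjusted p = 0.854). The difference between the paralogs was not tested. *SUR7*, the founding member of the family, stayed between 9638 and 11632 on all arrays, with the lowest value at −5 min. Its only call was a small rise from that array, at 56 and 120 min against −5 min (0.26 ± 0.06, adjusted p = 0.00125).

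*RTN1*, the major reticulon of yeast and paralog of *RTN2*, ranged from 12068 to 13400.5 over the 15 arrays, with the lowest value at −5 min, and was higher by 0.13 ± 0.04 at 7 against −5 min (adjusted p = 0.0269). Its log2 change was 0.04 ± 0.04 at 56 and 120 min against −5 min (adjusted p = 0.323), where *RTN2* had 3.85 ± 0.13. *BDH1* lay between 10297 and 14409.9 and rose by 0.36 ± 0.05 in the same comparison (adjusted p = 1.9e-05), against 1.57 ± 0.17 in *BDH2*. Among the relatives of *PHM7*, which itself rose by 2.87 ± 0.17, *CSC1* rose by 0.49 ± 0.05 (adjusted p = 2.5e-06) and *SPO75*, a gene of spore wall formation, by 0.60 ± 0.15 (adjusted p = 0.0027). *RSN1*, linked to salt tolerance, had 4669 to 5053 at 24 min and 5808 to 6156 at −10 min, but did not differ by the test between 56 and 120 min and −5 min (0.01 ± 0.06, adjusted p = 0.909). Its −5 min array (4971) lay under its −10 min arrays, and at 7 against −5 min it was higher (0.18 ± 0.05, adjusted p = 0.0309). In all, 5 of the 7 relatives were higher at 56 and 120 min against −5 min, none was lower, and their median log2 change was 0.36, with 46.0% of all probe sets higher and 30.2% lower.

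**Figure D5:**
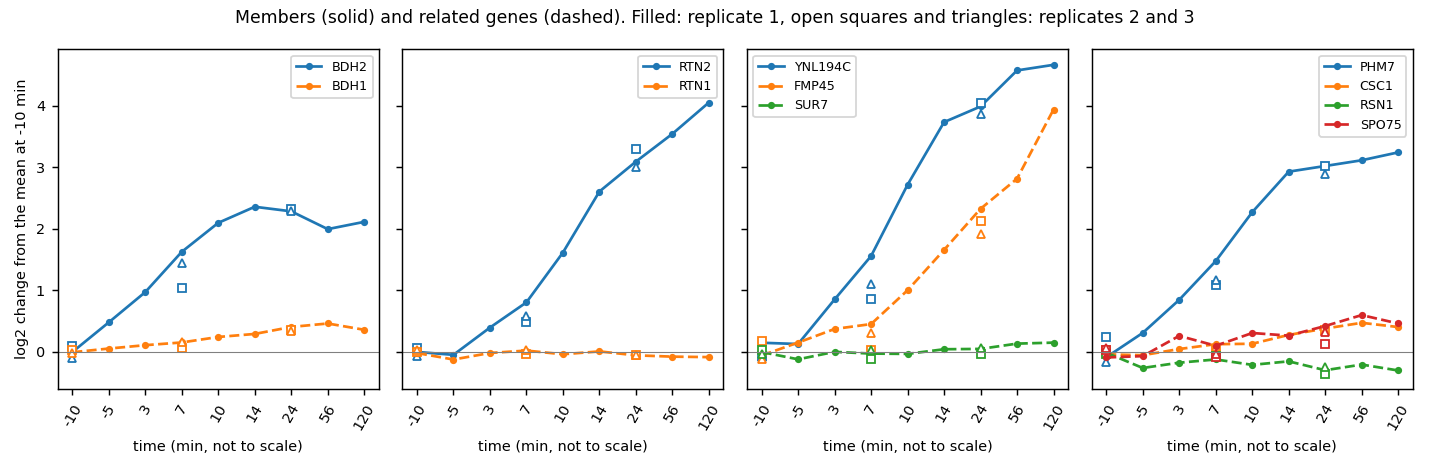
Log2 change of members (solid lines) and their relatives (dashed lines) from the mean at −10 min, against sampling time in min, in 4 panels for *BDH2*, *RTN2*, *YNL194C* and *PHM7*. *FMP45* is the only dashed line that climbs more than 1 log2 unit, while *RTN1* and *SUR7* remain near 0.

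Genes of the pathways to which the members are linked were counted from lists that leave the members out. In the stationary-phase list, 10 of 14 genes were higher at 14 against 7 min and none lower, with a median log2 change of 0.32, beside 33.6% of all probe sets higher. *SPG1*, like *SPG4* a gene for survival in stationary phase, rose by 0.90 ± 0.13 (adjusted p = 8.7e-05), *SIP18*, which protects against drying, by 0.88 ± 0.27 (adjusted p = 0.0165), *GIS1*, a transcription factor downstream of Rim15, by 0.73 ± 0.08 (adjusted p = 2.1e-05), and *YGP1*, a secreted glycoprotein, by 0.71 ± 0.11 (adjusted p = 0.00027). By this fit all of these were below the members' smallest change in that comparison, 0.99 in *BDH2*. Within replicate 1 that order did not hold for each gene. *SIP18* (273 to 643) and *SPG1* (296 to 516) rose there by larger factors than *BDH2* (9446 to 15686), whereas *GIS1* and *YGP1* rose by smaller ones.

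The 21 targets of Msn2 and Msn4 were all higher at 14 against 7 min (median 0.79, with 33.6% of all probe sets higher), and 17 of them at 7 against −5 min (median 0.41, with 10.3% of all probe sets higher). At 56 against 14 min 4 were higher and none lower (median 0.07), with 31.9% of all probe sets higher and 15.4% lower. Largest at 14 against 7 min were *CTT1*, cytosolic catalase (1.58 ± 0.13, adjusted p = 1.4e-06), *SOL4*, a phosphogluconolactonase (1.40 ± 0.14, adjusted p = 7.7e-06), *GAD1*, glutamate decarboxylase (1.24 ± 0.14, adjusted p = 1.4e-05), and *ALD3*, an aldehyde dehydrogenase (1.17 ± 0.12, adjusted p = 1.1e-05).

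Eisosome genes were higher in 8 of 11 cases at 14 against 7 min and lower in none (median 0.35), with 33.6% of all probe sets higher and 21.6% lower. Beside *FMP45* these included *EIS1* (0.48 ± 0.05, adjusted p = 9.4e-06) and *SEG1* (0.40 ± 0.10, adjusted p = 0.0064), which shape the domain, and *PKH1*, a kinase of it (0.46 ± 0.11, adjusted p = 0.00368). Of the 4 genes that shape the endoplasmic reticulum, *YOP1* (0.14 ± 0.04, adjusted p = 0.0092) and *LNP1* (0.20 ± 0.08, adjusted p = 0.0381) were higher and none was lower, beside the same background, and their changes were smaller than that of *RTN2* (1.98 ± 0.13).

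Of 15 measured genes of the phosphate regulon, 6 were higher and 1 lower at 14 against 7 min, with a median of 0.15, counts close to or below the 33.6% higher and 21.6% lower of all probe sets. *SPL2*, an inhibitor of low-affinity phosphate uptake (1.35 ± 0.19, adjusted p = 0.00011), *PHM8*, a phosphatase (1.33 ± 0.15, adjusted p = 1.4e-05), and *GIT1*, a glycerophosphoinositol transporter (0.63 ± 0.17, adjusted p = 0.00875), rose. *PHO84*, the high-affinity phosphate transporter, fell (−1.19 ± 0.41, adjusted p = 0.0289), opposite to *PHM7*. Of 13 genes that share the FMP prefix with *FMP16*, 10 were higher and 1 lower (median 0.33), beside 33.6% and 21.6% of all probe sets, led by *FMP33* (1.61 ± 0.13, adjusted p = 9.3e-07), *FMP45*, *FMP23* (0.89 ± 0.13, adjusted p = 0.00016) and *FMP40* (0.80 ± 0.08, adjusted p = 5.5e-06). The FMP prefix stands only for detection in purified mitochondria, not for a common function.

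Genes next to a member on its chromosome moved with it in some places and not in others. Of 20 adjacent genes 16 were measured, and 9 of these were higher and 2 lower at 14 against 7 min, where 33.6% of all probe sets were higher and 21.6% lower. *YNL195C*, uncharacterized and adjacent to *YNL194C* on chromosome XIV, rose most (1.84 ± 0.10, adjusted p = 1.4e-07), followed by *GDH3*, a glutamate dehydrogenase next to *BDH2* on chromosome I (1.06 ± 0.16, adjusted p = 0.00016), and *ATG34*, an autophagy receptor next to *PHM7* on chromosome XV (0.79 ± 0.11, adjusted p = 9.2e-05). *VTI1* (0.45 ± 0.07, adjusted p = 0.00019) and *ICY1* (0.28 ± 0.06, adjusted p = 0.00215), which flank *YMR196W* on chromosome XIII, *DOA4* beside *FMP16* (0.32 ± 0.07, adjusted p = 0.00238), *SEC17* beside *MOH1* (0.21 ± 0.06, adjusted p = 0.0091), *YNL193W* beside *YNL194C* (0.18 ± 0.06, adjusted p = 0.0255) and *BDH1* (0.16 ± 0.04, adjusted p = 0.0082) rose less.

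The neighbour of *RTC3* went the other way. *RPF1*, a ribosome assembly factor on chromosome VIII, averaged 85.8 at 24 min and 2148 at −10 min, and fell by 2.63 ± 0.17 on the log2 scale between 7 and 14 min (adjusted p = 2.9e-07). *ILV2*, acetolactate synthase beside *SPG4*, fell as well (−0.25 ± 0.05, adjusted p = 0.00097). Both genes beside *LEE1*, *LGE1* (0.10 ± 0.09, adjusted p = 0.33) and *KTR6* (0.01 ± 0.04, adjusted p = 0.804), *PAA1* beside *FMP16* (0.09 ± 0.04, adjusted p = 0.111), *ACK1* beside *RTN2* (−0.07 ± 0.06, adjusted p = 0.354) and the dim *YHR086W-A* beside *RTC3* (0.20 ± 0.27, adjusted p = 0.556) did not pass.

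Over the 15 arrays the 10 profiles resembled each other, as follows from a choice by 1 shared rise. Among the 45 pairs, Pearson's r of log2 intensity had a median of 0.971, a lowest value of 0.799 between *MOH1* and *BDH2*, the late and the early extremes, and a highest of 0.996 between *FMP16* and *RTN2*. The arrays of replicate 1 are from 1 culture and neighbouring times, so the 15 points are not independent. Outside the 10, the transcripts whose profile was most like the mean of the members were *UIP4*, *MSC1*, *OM14*, a protein of the mitochondrial outer membrane, *YBR085C-A* and *GPH1*, glycogen phosphorylase, with r between 0.998 and 0.999.

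The transcript most like each single member was found in the same way, with r between 0.994 and 0.999. *TSL1*, a subunit of trehalose synthesis, was nearest to both early members, *BDH2* (r = 0.995) and *RTC3* (0.994). *SOL4* was nearest to *LEE1* (0.999), *DDR2*, a stress-induced gene, to *PHM7* (0.997), *ATG19*, a receptor of selective autophagy, to *YMR196W* (0.998) and *UIP4* to *YNL194C* (0.997). Of the members highest at 120 min, others were matched by *NDE2*, the external NADH dehydrogenase of mitochondria, for *MOH1* (0.997), by *HXT5* for *FMP16* (0.999), by *AGX1*, an alanine-glyoxylate aminotransferase, for *SPG4* (0.996), and by *YNL195C* for *RTN2* (0.996). For *YNL194C* itself, the adjacent *YNL195C* was thus not the nearest. *TSL1*, *SOL4* and *DDR2* were also in the list of Msn2 and Msn4 targets.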

How the data were processed

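The study hybridized biotin-labelled RNA of 15 samples to 1 array each. The deposited values are linear intensities, 1 per probe set, made by the authors with RMA background correction, perfect-match probes, QSPLINE over the 15 arrays and the Li-Wong summary. R 2.10.0, affy and RMA are the tools in the submitters' processing notes. Intensities ranged from 8.92 to 31675, and their sum per array from 2.27e+07 to 2.40e+07. The small number of arrays limits the precision. Times are those of the labels; the study's record places the sample called −10 min somewhat earlier and not at the same minute in each culture.

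Log2 of the deposited intensities, with no pseudocount, was the input of limma 3.58.1 under R 4.3.3 (1 mean per time, a trend of the spread over intensity, two-sided). The Benjamini-Hochberg adjustment covered the 5498 probe sets that the platform annotation pairs with 1 *S. cerevisiae* gene. The threshold was 0.05. Fold changes are ratios of geometric means. Probe sets for the other organism on the array (1746), those unlisted in the annotation (3683) and 1 with several genes were left out. The background intensity is the 95th percentile of the mean log2 values of the 1746. Gene order on chromosomes came from RefSeq assembly R64, and no coordinates were used. A search of promoters for motifs had been planned and was not run, because no sequences were used here.

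Replicate numbers mark samples of 1 bioreactor culture, so they pair the samples. Within a culture, the deviations of 2 samples from their time means had correlations of −0.271 to 0.189. The methods state no block, so the culture as a block (statmod 1.5.0 for the random form) was an alternative, beside quantile normalization, median centring, 50 units added before log2, a filter on dim probe sets, no trend, all 10928 probe sets and each replicate left out. Leaving out a replicate removed its arrays only at the times sampled in all cultures, so the other arrays of replicate 1 always stayed in. The fit was tested on simulated data. The 10 genes, the lists and the tests were chosen with earlier results of these data known. Genes named are the 10, their relatives, chromosomal neighbours, the 10 largest other rises, the nearest profiles and in each list up to 4 genes past the threshold at 14 against 7 min, by size of change.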

Additional observations from a re-analysis of the deposited data

How the results depend on the processing

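The number of members past the threshold was recomputed under every alternative. At 120 against 56 min, 2 members passed with the replicate block, with median centring and with 50 units added before log2, where 1 passed in the fit reported, and leaving out 1 replicate at a time gave 1 to 5, the highest without replicate 2. At 3 against −5 min the same omission gave 0 to 6 members, again the highest without replicate 2. Of 770 recomputed changes of single members, 743 kept their direction and side of the threshold, 19 passed only under the alternative, 8 passed only in the fit reported, and none turned its direction. Many of them could not turn, because the alternative left the log2 change itself as it was. That held in every comparison for the filter on dim probe sets, the fit without the trend and the fit over all probe sets. It also held for the replicate block and each omitted replicate in comparisons without the 7 min arrays. There only the adjusted p could move. With the culture as a paired block, *MOH1* passed at 7 against −5 min (adjusted p = 0.0267) and at 120 against 56 min (0.0476), *RTC3* no longer passed at 56 against 14 min (0.0631), and no other member's call changed.

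Background counts moved with the processing as well. Transcripts higher at 7 against −5 min numbered 568 in the fit reported, 1064 with median centring, 918 with quantile normalization, 184 without replicate 3, 269 without replicate 1 and 1121 without replicate 2. Calls in both directions at 10 against 7 min numbered 1251, against 747 with the replicate block and 625 without replicate 3. At 120 against 56 min there were 572, with 142 without replicate 3 and 1488 without replicate 2. At 3 against −5 min there were 0, with 183 without replicate 2 and 7 over all 10928 probe sets. At 56 against 14 min the lower transcripts numbered 844, and 1274 with median centring. Median centring also changed the share of calls that were higher, to 63.2% from 45.9% at 7 against −5 min, to 51.3% from 67.5% at 56 against 14 min and to 55.7% from 44.6% at 120 against 56 min. The causes were not tested. Of the 9 sampled times, 6 have 1 array each.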
